A study of Mus musculus with 4 samples.

Results

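Glycolysis and hypoxia-response genes were examined in effector regulatory T cells sorted from Peyer's patches, the follicles of lymphoid tissue in the wall of the mouse small intestine. The genes were 31 named symbols of the 24061 gene rows of the count table. They comprise the glucose transporters and the enzymes of glycolysis, the enzymes and carriers that handle pyruvate and lactate, and the oxygen-sensing factor Hif1a with several genes known as its targets. They are taken by symbol, from a list drawn up with earlier results of these data known. All 31 were in the table and all 31 passed the filter on low counts.

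The study sequenced poly(A) RNA of sorted CD4+FoxP3+CD62L- cells, about 40000 per sample, from mice 13 weeks old that had been backcrossed to C57BL/6 for 5 generations. One pair of libraries was labelled flox (Maf flox/flox) and the other wt (Maf+/+). All 4 carried Cre recombinase fused to YFP at Foxp3, a gene that marks regulatory T cells, so the Cre is shared by both labels. Maf encodes c-MAF, a transcription factor of effector and regulatory T cells, and the labels compare cells with and without the floxed alleles. Each library is called here by its label and the number in its title: flox 2, wt 2, flox 1 and wt 1. A separate replicate field of the labels disagrees with the titles: it gives replicate 2 for both flox libraries and replicate 1 for both wt libraries, so every comparison by number rests on the titles. Nothing in the labels says that the libraries came from separate animals, so a p-value reflects only how far these samples spread, which may be technical.

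The Maf counts went against the labels. Maf (chromosome 8, 115682942 to 115707794, minus strand, mm10) had 15 counts in the library labelled flox 2 and 40 in that labelled wt 2, against 2975 in that labelled flox 1 and 3071 in that labelled wt 1. On the scale of CPM (counts scaled to a common library size, corrected for composition) these were 0.725 and 1.98 CPM in the libraries numbered 2, against 122 and 149 CPM in those numbered 1. A library labelled flox and a library labelled wt thus stood on each side, and Maf followed the number in the title. The 2 libraries numbered 2 are set here against the 2 numbered 1, and the labelled flox libraries against the labelled wt libraries in a separate comparison. Each direction given below is between libraries so numbered or labelled, and the genotype behind either grouping was not tested. With 2 libraries a group an exact permutation test cannot go below p = 0.333, so the tests below are those of a model fitted across all 13022 tested genes.

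The libraries held 20809399 counts in genes for flox 2, 19368745 for wt 2, 24687897 for flox 1 and 21148345 for wt 1. A count of 3, the limit that a count of 0 allows, was worth 0.123 to 0.148 CPM. Regulatory and CD4 T cell markers were present in every library, with Cd4 at 973 and 998 CPM in the libraries numbered 2, against 919.6 and 983 CPM in those numbered 1. Of the 8 tested, 5 had a log2 fold change above 0 by number and 3 below, against 48.7% of all tested genes below 0. The median of the 8 was 0.05. In 3 both libraries numbered 2 lay above both numbered 1, against 22.7% of all tested genes. In 1 they lay below, against 22.5%. That gene, Ctla4, was the 1 that passed the test by number (edgeR adjusted p = 0.0270). Over all tested genes 1.41% passed in that direction. Ctla4 had 2080.2 and 1627 CPM in the libraries numbered 2, against 3344 and 3342 CPM in those numbered 1. In RNA from bulk cells, fewer cells of a type and less RNA per cell cannot be told apart.

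Glycolysis splits glucose into pyruvate in the cytosol. Glucose enters through facilitative transporters, is phosphorylated by hexokinase and committed by phosphofructokinase, and pyruvate is then either reduced to lactate by lactate dehydrogenase and exported through monocarboxylate transporters or taken into mitochondria. HIF-1 is a transcription factor made of an oxygen-labile alpha subunit and a stable partner: prolyl hydroxylases mark the alpha subunit for degradation when oxygen is present, and in low oxygen the dimer binds a short core, ACGTG or GCGTG, near many glycolytic genes. In T cells, antigen receptor and mTORC1 signals also raise HIF-1 alpha and glycolysis, and in regulatory T cells glycolysis is linked to proliferation and migration.

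Promoter sequence is shown for the genes with the clearest differences, because the HIF core is the known common element of this gene group. The windows run from 250 bases before to 50 bases after the annotated start (RefSeq, GRCm38.p6), read 5′ to 3′ on the gene's strand, and capitals mark ACGTG or GCGTG on either strand, or the CACGTG that overlaps one. Slc16a3 lies at chr11:120948817-120949116 (plus strand), Ddit4 at chr10:59951721-59952020 (minus strand) and Hif1a at chr12:73907617-73907916 (plus strand).
Slc16a3: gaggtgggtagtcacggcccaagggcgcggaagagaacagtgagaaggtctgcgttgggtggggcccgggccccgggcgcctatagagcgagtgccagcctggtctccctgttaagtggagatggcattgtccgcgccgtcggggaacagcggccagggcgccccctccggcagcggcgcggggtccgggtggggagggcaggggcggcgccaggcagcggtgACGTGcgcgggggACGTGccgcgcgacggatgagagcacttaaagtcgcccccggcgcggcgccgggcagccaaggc
Ddit4: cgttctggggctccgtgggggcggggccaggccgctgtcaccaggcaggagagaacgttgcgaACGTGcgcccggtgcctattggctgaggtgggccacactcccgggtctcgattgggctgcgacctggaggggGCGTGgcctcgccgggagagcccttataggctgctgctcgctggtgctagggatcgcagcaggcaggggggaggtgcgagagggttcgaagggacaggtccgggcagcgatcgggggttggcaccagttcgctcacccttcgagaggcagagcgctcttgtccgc
Hif1a: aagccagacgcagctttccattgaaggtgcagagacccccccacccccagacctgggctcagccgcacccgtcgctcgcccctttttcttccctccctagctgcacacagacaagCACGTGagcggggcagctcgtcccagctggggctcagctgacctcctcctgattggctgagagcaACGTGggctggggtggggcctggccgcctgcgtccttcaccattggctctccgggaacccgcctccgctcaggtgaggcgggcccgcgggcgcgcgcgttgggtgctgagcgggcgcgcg
Each of these windows held 2 cores. In the Hif1a window 1 of them was part of an E-box, CACGTG, the palindrome that MYC and related factors bind. The Hif1a window also held 1 TGCTGA, one arm of the palindromic element that MAF proteins recognise, and the Slc16a3 and Ddit4 windows held none.

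Windows were found for 30 of the 31 genes, 46 in all because some genes have several starts, and windows of 1 gene can share bases. A core on either strand was in 37 of the 46 windows (80.4%), against 60.6% of 12475 windows of tested genes and 43.8% of all 32841 windows of the same length. CACGTG was in 13.0% of the 46 windows, against 9.7% of windows of tested genes and 7.15% of all. TGCTGA was in 4 of the 46 windows (8.7%), against 15.8% of windows of tested genes and 19.5% of all. These shares describe letters in the windows and were not tested.

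Of the 31 genes, Slc16a3 and Ddit4 fell in the libraries numbered 2 and none rose at an adjusted p under 0.05 (edgeR quasi-likelihood test, Benjamini-Hochberg over all tested genes). The background of that comparison was 236 of 13022 genes, 1.81% in either direction, with 1.41% lower and 0.399% higher. A fitted log2 fold change below 0 was found for 24 of the 31, against 48.7% of all tested genes, and for 22 of the 29 that did not pass; over the 31 genes the median was -0.19, against 0.01 over all tested genes. In 18 of the 31 both libraries numbered 2 lay below both numbered 1, against 22.5% of all tested genes, and in 3 they lay above, against 22.7%. At an unadjusted p under 0.05, 9 were lower and 1 was higher, where 8.12% and 5.45% of all tested genes were. DESeq2 called 5 of the 31 (4.88% of all tested genes), edgeR's likelihood ratio test 4 (4.67%) and limma-voom the 2 named above (1.54%).

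**Figure D1:**
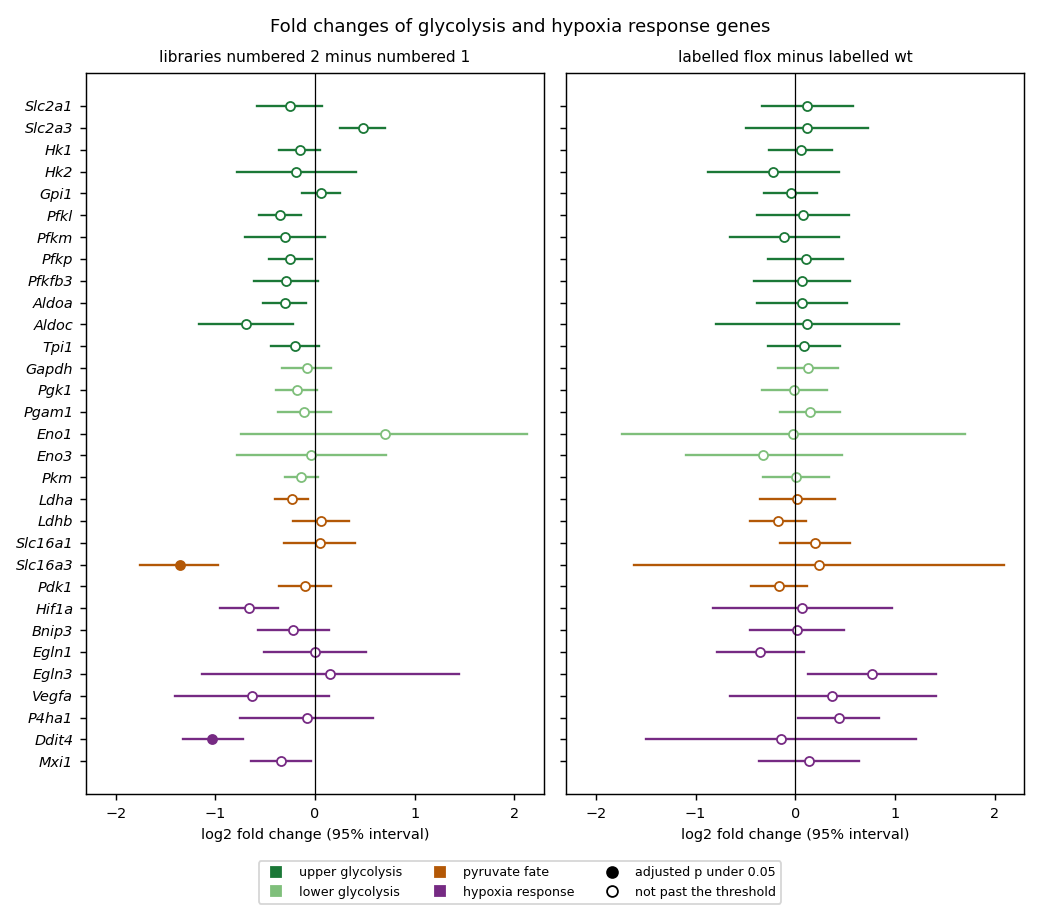
Fitted log2 fold change of each of the 31 genes with its 95% interval (x axis) for libraries numbered 2 minus numbered 1 (left) and labelled flox minus labelled wt (right); colours give the place in the pathway and filled points passed an adjusted p of 0.05. Slc16a3 and Ddit4 are filled on the left, at -1.36 and -1.03, and no point is filled on the right.

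Among the libraries, wt 2 held the lowest level of 20 of the 31 genes, where it was the lowest library for 26.6% of all tested genes. The summed level of the 31 genes was 7812 CPM in flox 2 and 6924 CPM in wt 2, against 8710.5 CPM in flox 1 and 8932 CPM in wt 1. The sums do not overlap, and flox 2 lay nearer to the libraries numbered 1 than wt 2 did. Abundant genes weigh most in them: Hif1a alone had 1319 CPM in flox 2 and 1039.8 CPM in wt 2, against 1793 and 1932 CPM in flox 1 and wt 1. The 18 genes from the transporters to pyruvate kinase, without Hif1a, summed to 4759 and 4335 CPM in flox 2 and wt 2. In flox 1 and wt 1 they summed to 4970.3 and 5049 CPM.

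**Figure D2:**
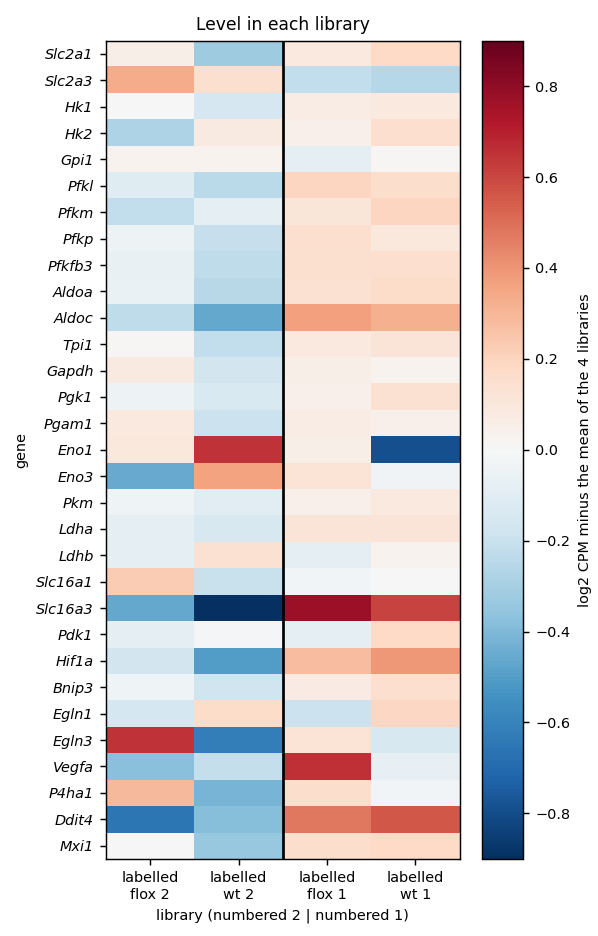
Level of each gene in each library as log2 CPM minus the mean of the 4 libraries (colour), with genes in rows and the libraries numbered 2 left of those numbered 1. Slc16a3, Ddit4 and Hif1a are blue in both libraries on the left, and Slc2a3 is blue in both on the right.

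The glucose transporter genes among the 31 are Slc2a1 (GLUT1) and Slc2a3 (GLUT3), facilitative transporters of which GLUT3 has the higher affinity for glucose. Slc2a3 had 283 CPM in flox 2 and 248 CPM in wt 2, against 193 CPM in flox 1 and 188 CPM in wt 1. Both libraries numbered 2 lay above both numbered 1, and Slc2a3 was the 1 gene of the 31 that was higher at an unadjusted p under 0.05. Its log2 fold change was 0.48 (SE 0.09, 95% interval 0.25 to 0.70), which did not pass the threshold (edgeR, adjusted p = 0.0746). Slc2a1 had 122 CPM in flox 2 and 94.0 CPM in wt 2, against 125 CPM in flox 1 and 133 CPM in wt 1. Its log2 fold change was -0.25 (SE 0.13, interval -0.58 to 0.07). Levels per kilobase use the union of all annotated exons of a gene, which can be longer than the transcript present. Per kilobase of exon, Slc2a3 made up 52.8% and 56.1% of the summed level of the 2 transporters in flox 2 and wt 2, against 42.7% and 40.7% in flox 1 and wt 1. The libraries numbered 2 thus held the larger Slc2a3 share, and the difference between the changes of the 2 genes was not tested.

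Hexokinase was present mainly as Hk1, the form found in most tissues. Hk2, the form known to be induced by growth signals and hypoxia, made up 2.89% and 4.04% of the 2 per kilobase in flox 2 and wt 2, against 3.41% and 3.62% in flox 1 and wt 1. These shares overlap between the groups. The log2 fold change was -0.15 for Hk1 and -0.19 for Hk2, and neither passed the test. Gpi1, which turns glucose 6-phosphate into fructose 6-phosphate, had 364 CPM in flox 2 and 363 CPM in wt 2, against 337 CPM in flox 1 and 359 CPM in wt 1. Its log2 fold change was 0.06 (interval -0.13 to 0.25).

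The phosphofructokinase subunits form the enzyme of the committed step. Pfkl, the liver-type subunit, had 168 CPM in flox 2 and 153 CPM in wt 2, against 207 CPM in flox 1 and 202 CPM in wt 1. Both libraries numbered 2 were lower, by a log2 fold change of -0.35 (SE 0.09, edgeR adjusted p = 0.142). Pfkp, the platelet-type subunit, had 318 CPM in flox 2 and 284 CPM in wt 2, against 364 CPM in flox 1 and 350 CPM in wt 1, a log2 fold change of -0.25 (edgeR adjusted p = 0.3). Pfkm, the muscle-type subunit, was the least abundant of the 3 per kilobase, with 7.61% and 9.12% of their sum in flox 2 and wt 2, against 7.99% and 8.71% in flox 1 and wt 1. Per kilobase of exon, Pfkl made up 47.6% and 47.2% of the sum in flox 2 and wt 2, against 49.0% in each of flox 1 and wt 1. This share rests on exon unions of 6.675 kb for Pfkl and 13.401 kb for Pfkp. In CPM, without a length, Pfkp was the higher of the 2 in every library. Pfkfb3, which makes the fructose 2,6-bisphosphate that activates phosphofructokinase, had 26.8 CPM in flox 2 and 24 CPM in wt 2, against 31.1 CPM in flox 1 and 31.3 CPM in wt 1, a log2 fold change of -0.29 that did not pass the test.

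Aldolase cuts the 6-carbon sugar into 2 trioses. Aldoa, its main form here, had 689.5 CPM in flox 2 and 605 CPM in wt 2, against 792 CPM in flox 1 and 807 CPM in wt 1. The groups do not overlap, and the log2 fold change was -0.30 (SE 0.09, edgeR adjusted p = 0.195). Aldoc, the form best known from brain, had 10.1 CPM in flox 2 and 8.6 CPM in wt 2, against 15.3 CPM in flox 1 and 14.8 CPM in wt 1. Its log2 fold change of -0.69 (SE 0.20, edgeR adjusted p = 0.188) was the most negative among the glycolytic enzymes of the 31 and did not pass the threshold. Tpi1, which interconverts the trioses, had a log2 fold change of -0.20. Over the 12 genes from the transporters to Tpi1 the median log2 fold change was -0.25, and none passed the adjusted threshold. Both libraries numbered 2 lay below both numbered 1 in 9 of them, against 22.5% of all tested genes. In 2 they lay above, against 22.7%.

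No gene of the later steps of glycolysis, from glyceraldehyde 3-phosphate to pyruvate, passed the test. Gapdh, Pgk1, Pgam1 and Pkm, which encode glyceraldehyde-3-phosphate dehydrogenase, phosphoglycerate kinase, phosphoglycerate mutase and the muscle-type pyruvate kinase, had log2 fold changes of -0.08, -0.18, -0.11 and -0.14, and each interval included 0. Gapdh, often used as a reference transcript, had 390 CPM in flox 2 and 329 CPM in wt 2, against 383 CPM in flox 1 and 378 CPM in wt 1. Pkm had 1442 CPM in flox 2 and 1377 CPM in wt 2, against 1528 CPM in flox 1 and 1573 CPM in wt 1. The median log2 fold change of the 6 genes of this stage was -0.09. In 2 of the 6 both libraries numbered 2 lay below both numbered 1, against 22.5% of all tested genes. In 1 they lay above, against 22.7%.

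Enolase levels are uncertain in this table. Eno1, the enolase of most cells, had 28 counts in flox 2 and 40 in wt 2, against 32 in flox 1 and 15 in wt 1, far below the enzymes on either side of it. The genome annotation holds 3 near-identical copies of the Eno1 transcript, and 1 of them, Eno1b, matches it over 1736 bases at 99.482% identity. Reads that fit more than 1 place were set apart by the counter, 20.8% to 21.4% of the column totals, and how many were from Eno1 was not tested. Eno3, the muscle enolase, had 6.96 CPM in flox 2 and 12.3 CPM in wt 2, against 10.4 CPM in flox 1 and 9.34 CPM in wt 1, with no common direction. Gapdh (71 copies), Pgk1 and Ldha (2 copies each), and Pkm and Ldhb (1 copy each) also had copies of at least 95% identity over at least 50% of the transcript. The Gapdh copies with counts of their own summed to at most 31 counts in a library. The levels of these genes are uncertain by the reads set apart because they also fit a copy. How many such reads there were was not tested.

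Levels per exon length spanned the pathway widely. Ldha, Pkm, Hif1a and Aldoa averaged more than 200 CPM per kilobase of exon. The order of genes depends on the length used, here the union of all annotated exons. Gapdh averaged 89.6 CPM per kilobase over a union of 4.133 kb, while its longest annotated coding transcript has 1420 bases. Ldha stood at 294 and 283 CPM per kilobase in flox 2 and wt 2, against 339 and 339.5 in flox 1 and wt 1. At the other end, 9 genes averaged under 10 CPM per kilobase, among them Bnip3, Pfkfb3, Vegfa and Hk2.

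**Figure D3:**
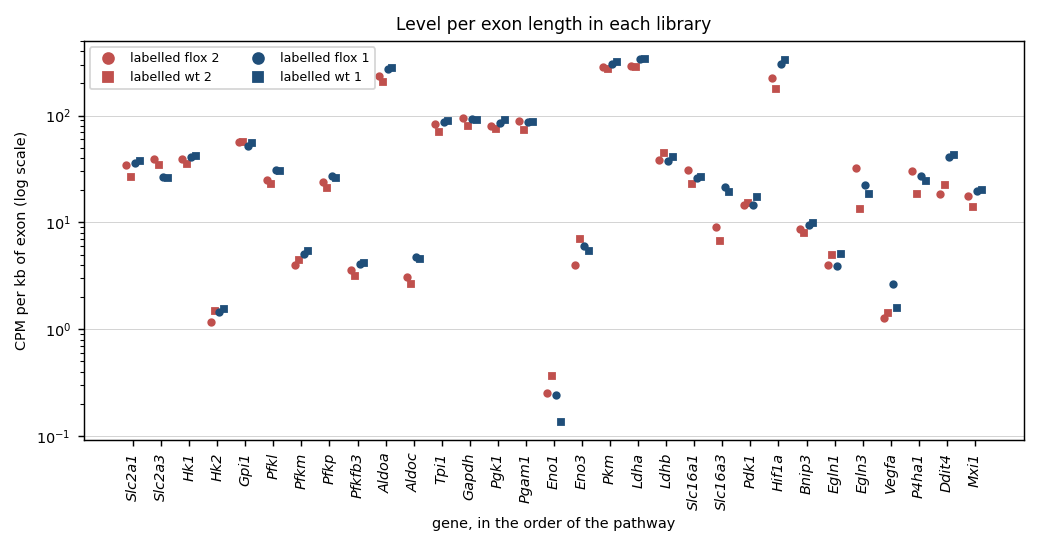
Level per kilobase of exon (y axis, log scale) of each gene in pathway order, with 1 point for each library; red points are the libraries numbered 2 and blue those numbered 1. Ldha, Pkm, Hif1a and Aldoa stand above 200 CPM per kilobase, Eno1 is the lowest, and red lies below blue for Slc16a3, Hif1a and Ddit4.

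Among the genes that handle pyruvate and lactate, Slc16a3 fell and no other passed the test. Slc16a3 (chromosome 11, 120948480 to 120960868, plus strand) encodes MCT4, the low-affinity monocarboxylate transporter that exports lactate from highly glycolytic cells. It had 48.5 CPM in flox 2 and 35.4 CPM in wt 2, against 114 CPM in flox 1 and 102 CPM in wt 1. Both libraries numbered 2 lay far below both numbered 1, with means of 41.9 ± 9.3 CPM in those numbered 2 and 108 ± 8.2 CPM in those numbered 1 (SD, n = 2 each). Slc16a3 fell by 1.36 on the log2 scale (SE 0.16, interval -1.76 to -0.97), to 0.389 of the level in the libraries numbered 1 (edgeR, adjusted p = 0.017). Within the flox label the ratio of library 2 to library 1 was 0.427 (95% interval from counting 0.397 to 0.459), and within the wt label it was 0.347 (0.318 to 0.377). The adjusted p rose to 0.0607 without flox 1 and 0.0853 without wt 1, with log2 fold changes of -1.29 and -1.44.

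Slc16a1, the gene of the higher-affinity carrier MCT1, was fitted near 0. It had 137 CPM in flox 2 and 102 CPM in wt 2, against 115 CPM in flox 1 and 117 CPM in wt 1, and the log2 fold change was 0.05 (interval -0.31 to 0.40). Per kilobase of exon, Slc16a3 made up 22.7% and 22.4% of the summed level of the 2 carriers in flox 2 and wt 2, against 45.2% and 42.1% in flox 1 and wt 1. The share in both libraries numbered 2 was lower than in either numbered 1, and the difference between the changes of the 2 genes was not tested.

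Neither lactate dehydrogenase gene passed the test. Ldha, whose product favours the making of lactate, had 973 CPM in flox 2 and 937 CPM in wt 2, against 1122 CPM in flox 1 and 1124 CPM in wt 1. The groups do not overlap, and the log2 fold change was -0.23 (SE 0.07, edgeR adjusted p = 0.207). Ldhb, whose product favours the use of lactate, had a log2 fold change of 0.06, with 59.7 CPM in flox 2 and 69.4 CPM in wt 2, against 59.3 CPM in flox 1 and 64.5 CPM in wt 1. Pdk1, the kinase that inhibits pyruvate dehydrogenase and is a known HIF-1 target, had 113 CPM in flox 2 and 118 CPM in wt 2, against 113 CPM in flox 1 and 135 CPM in wt 1. Its log2 fold change was -0.10.

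Hif1a itself, which encodes the oxygen-labile subunit of HIF-1 (chromosome 12, 73901375 to 73947530, plus strand), had 1319 CPM in flox 2 and 1039.8 CPM in wt 2, against 1793 CPM in flox 1 and 1932 CPM in wt 1. Both libraries numbered 2 were lower, with means of 1179.5 ± 198 CPM in those numbered 2 and 1863 ± 98.1 CPM in those numbered 1 (SD, n = 2 each). The log2 fold change was -0.66 (SE 0.12, interval -0.95 to -0.37), and its adjusted p of 0.0655 missed the threshold in the edgeR quasi-likelihood test. It passed in 7 of the 15 settings tried, DESeq2 among them (adjusted p = 5.91e-05). Some of these settings left out 1 library, and it did not pass without flox 1 or without wt 1. With 1 library left out its log2 fold change ran from -0.84 to -0.49. Within labels, the ratio of library 2 to library 1 was 0.736 for flox and 0.538 for wt. The exons of Hif1a overlap 2 other annotated genes, 1 on each strand, and the use of strand in counting is not given in the sources used here, so reads of the antisense gene cannot be told apart from those of Hif1a.

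Ddit4 was the second gene that fell. Ddit4 (chromosome 10, 59949669 to 59951834, minus strand) encodes REDD1, an inhibitor of mTORC1 that is induced by hypoxia, glucocorticoids and other stresses. It had 32.7 CPM in flox 2 and 39.3 CPM in wt 2, against 71.2 CPM in flox 1 and 75.5 CPM in wt 1. Both libraries numbered 2 lay below both numbered 1, with means of 36.0 ± 4.68 CPM in those numbered 2 and 73.4 ± 3.05 CPM in those numbered 1 (SD, n = 2 each). Ddit4 fell by 1.03 on the log2 scale (SE 0.13, interval -1.33 to -0.72; edgeR, adjusted p = 0.017). The ratio of library 2 to library 1 was 0.459 (counting interval 0.420 to 0.502) within the flox label and 0.521 (0.477 to 0.567) within the wt label. Without flox 1 the adjusted p was 0.0534 and without wt 1 it was 0.138, with log2 fold changes of -1.07 and -0.98. Neither Slc16a3 nor Ddit4 overlaps an exon of another annotated gene or has a near-identical copy, and neither does Slc2a3.

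**Figure D4:**
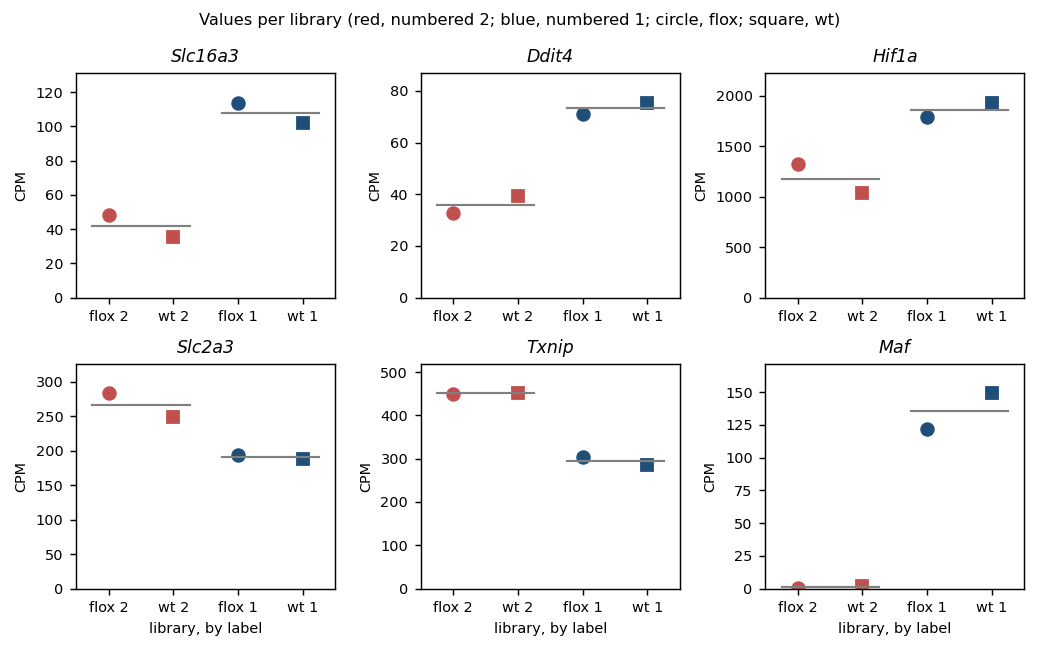
CPM (y axis, linear from 0) of 6 genes in each library, the libraries numbered 2 (red) left of those numbered 1 (blue), circles for the flox label and squares for wt; the grey line is the mean of the 2 libraries. Slc16a3, Ddit4 and Hif1a are lower and Slc2a3 and Txnip higher in both libraries on the left, and Maf is at 0.725 and 1.98 CPM there.

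None of the other genes known as HIF-1 targets passed the test. Mxi1, a MAX partner that opposes MYC, had 119.8 CPM in flox 2 and 94.5 CPM in wt 2, against 134 CPM in flox 1 and 136 CPM in wt 1, a log2 fold change of -0.34 (edgeR adjusted p = 0.313). Bnip3, which drives removal of mitochondria, had 19.8 CPM in flox 2 and 18.0 CPM in wt 2, against 21.4 CPM in flox 1 and 22.6 CPM in wt 1, and its log2 fold change of -0.22 did not pass. Vegfa, the angiogenic growth factor, had 5.47 CPM in flox 2 and 6.13 CPM in wt 2, against 11.2 CPM in flox 1 and 6.76 CPM in wt 1. Its level in flox 1 stood apart, and the log2 fold change was -0.63 (SE 0.32).

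Egln1, Egln3 and P4ha1 differed more between libraries of the same number than between the numbers. Egln1, the main prolyl hydroxylase (PHD2), had 14.3 CPM in flox 2 and 17.9 CPM in wt 2, against 14.0 CPM in flox 1 and 18.2 CPM in wt 1, and its log2 fold change rounded to 0.00. Egln3, the hypoxia-inducible prolyl hydroxylase PHD3, had 86.0 CPM in flox 2 and 35.6 CPM in wt 2, against 59.7 CPM in flox 1 and 49.6 CPM in wt 1. P4ha1, a collagen prolyl hydroxylase, had 124 CPM in flox 2 and 75.7 CPM in wt 2, against 113 CPM in flox 1 and 99.4 CPM in wt 1. For Egln3 and P4ha1 the libraries numbered 2 held both the highest and the lowest level, and the log2 fold changes were 0.15 (SE 0.46) and -0.08. The 8 genes of the hypoxia response had a median log2 fold change of -0.28. In 5 of them both libraries numbered 2 lay below both numbered 1, against 22.5% of all tested genes. In none did they lie above, against 22.7%.

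**Figure D5:**
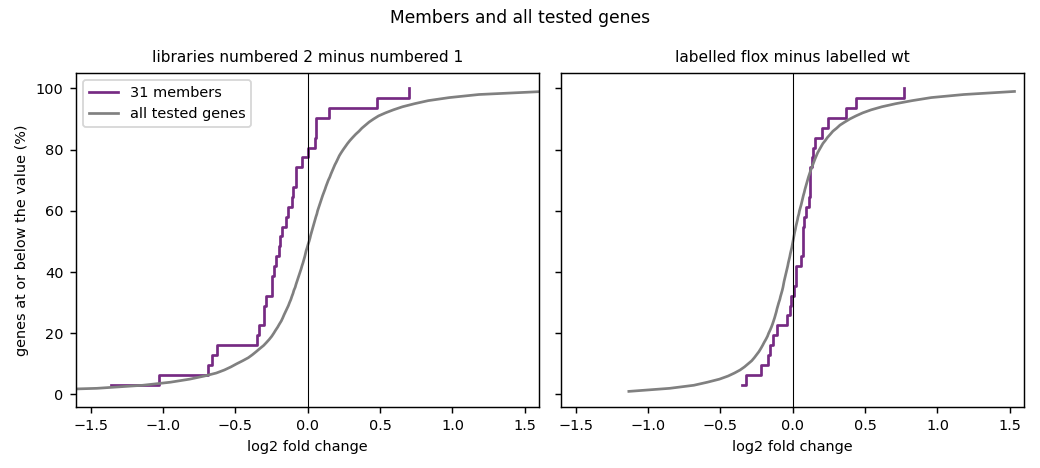
Share of genes at or below a given log2 fold change (y axis, %) for the 31 genes (purple steps) and all tested genes (grey), for libraries numbered 2 minus numbered 1 (left) and labelled flox minus labelled wt (right). On the left the purple line lies left of the grey one over the middle of the range, with medians of -0.19 and 0.01; on the right the medians are 0.07 and 0.0.

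Compared by label, none of the 31 genes passed the adjusted threshold, where 0.00768% of all tested genes (1 gene) did in the edgeR quasi-likelihood test. At an unadjusted p under 0.05, 2 of the 31 were higher and none was lower, where 1.31% of all tested genes were higher and 0.676% lower. These were Egln3, with 72.8 ± 18.6 CPM in the labelled flox libraries and 42.6 ± 9.86 CPM in the labelled wt libraries (SD, n = 2 each), and P4ha1, with 118 ± 8.32 CPM in the labelled flox libraries and 87.6 ± 16.8 CPM in the labelled wt libraries. The log2 fold change was 0.77 (SE 0.25, interval 0.13 to 1.41) for Egln3 and 0.44 (SE 0.16, interval 0.03 to 0.84) for P4ha1, each with an adjusted p of 1 in edgeR. Both groups were separate for 8 of the 31 genes, 4 higher and 4 lower, against 13.2% and 13.8% of all tested genes. For Slc16a3 and Ddit4 the labelled groups each held 1 low and 1 high library, and their intervals by label ran across 0.

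Genes of neighbouring pathways were taken as whole lists. For the counts below, 8.12% of all tested genes were lower and 5.45% higher by number at an unadjusted p under 0.05. Of 23 tested genes of glycolysis and glycogen beyond the 31, none passed the threshold in the comparison by number (edgeR quasi-likelihood; 1 higher and 2 lower at an unadjusted p under 0.05), and the median log2 fold change was -0.07. Pygl, the liver-type glycogen phosphorylase, had 11.3 CPM in flox 2 and 10.4 CPM in wt 2, against 6.10 CPM in flox 1 and 4.52 CPM in wt 1 (log2 fold change 1.03, edgeR adjusted p = 0.149). Eno2, the neuronal enolase, had 2.66 CPM in flox 2 and 3.66 CPM in wt 2, against 8.15 CPM in flox 1 and 5.79 CPM in wt 1 (log2 fold change -1.14, edgeR adjusted p = 0.224). Pck2, the mitochondrial PEP carboxykinase, had a log2 fold change of -0.32. Of 8 genes of the pentose phosphate pathway, which branches off at glucose 6-phosphate, none passed (1 higher at an unadjusted p under 0.05, edgeR). The median was 0.09, and 6 were positive, where 48.7% of all tested genes were below 0. Taldo1, transaldolase, had 225 CPM in flox 2 and 227 CPM in wt 2, against 199 CPM in flox 1 and 194 CPM in wt 1 (log2 fold change 0.20, edgeR adjusted p = 0.329). Tkt and H6pd, which encode transketolase and the hexose 6-phosphate dehydrogenase of the endoplasmic reticulum, had log2 fold changes of 0.14 and 0.17.

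Of 17 tested genes of pyruvate and lactate handling, none passed at the adjusted or at the unadjusted threshold, and the median log2 fold change was -0.11. Bsg, basigin, the chaperone that brings MCT1 and MCT4 to the cell surface, had 197 CPM in flox 2 and 189.6 CPM in wt 2, against 211 CPM in flox 1 and 218 CPM in wt 1, a log2 fold change of -0.15. Pcx and Pdha1, which encode pyruvate carboxylase and a subunit of pyruvate dehydrogenase, had log2 fold changes of 0.63 and -0.15.

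Of 13 regulators of the HIF pathway, none passed, and the median log2 fold change was 0.05. At an unadjusted p under 0.05, 4 were lower and none higher, against 8.12% and 5.45% of all tested genes. Egln2, the prolyl hydroxylase PHD1, had 75.9 CPM in flox 2 and 73.4 CPM in wt 2, against 102 CPM in flox 1 and 103 CPM in wt 1 (log2 fold change -0.46, edgeR adjusted p = 0.0684). Siah2, a ubiquitin ligase that targets prolyl hydroxylases, had 77.5 CPM in flox 2 and 54.6 CPM in wt 2, against 98.5 CPM in flox 1 and 97.6 CPM in wt 1, with a log2 fold change of -0.57. Arnt2, an alternative partner of HIF alpha subunits, had 31 counts in flox 2 and 2 in wt 2, against 573 in flox 1 and 386 in wt 1. Within the flox label the ratio of library 2 to library 1 was 0.0639 (counting interval 0.043 to 0.0917) and within the wt label it was 0.00527 (0.000636 to 0.0192). The libraries numbered 2 differed widely from each other, and the fitted log2 fold change of -4.71 (SE 0.91) did not pass in edgeR (adjusted p = 0.133). It did in DESeq2 (adjusted p = 0.0317).

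Of 29 tested genes of the wider hypoxia response, Anxa2 fell and none rose at the adjusted threshold. Over all tested genes 1.41% fell and 0.399% rose. At an unadjusted p under 0.05 (edgeR), 6 of the 29 were lower and 3 higher, against 8.12% and 5.45% of all tested genes. The median log2 fold change was -0.04. Anxa2, a calcium-dependent membrane-binding protein, had 45.2 CPM in flox 2 and 52.1 CPM in wt 2, against 86.4 CPM in flox 1 and 75.2 CPM in wt 1. Its log2 fold change was -0.73 (SE 0.12, edgeR adjusted p = 0.0476). The call was lost without flox 1 (adjusted p = 0.226), without wt 1 (adjusted p = 0.155) and under 5 other settings. Of 29 tested genes of MYC, mTORC1 and energy sensing, Txnip rose and none fell at the adjusted threshold, with the same background shares. At an unadjusted p under 0.05 (edgeR), 6 of these 29 were lower and 2 higher, against 8.12% and 5.45%. Their median log2 fold change was -0.08. Txnip is a glucose-induced gene whose product limits glucose uptake through GLUT1 and binds thioredoxin. It had 450.5 CPM in flox 2 and 451 CPM in wt 2, against 303 CPM in flox 1 and 285 CPM in wt 1. The libraries within each group were close, and the log2 fold change was 0.62 (SE 0.08, edgeR adjusted p = 0.0189). Without flox 1 its adjusted p was 0.105 and without wt 1 it was 0.214. By label, none of the genes of these 6 lists passed.

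Transcripts of other cells and of handling varied between the libraries. The summed level of 18 immediate early and heat shock genes was 23212 CPM in flox 2 and 13992 CPM in wt 2, against 20018 CPM in flox 1 and 19923 CPM in wt 1. At an unadjusted p under 0.05, 8.12% of all tested genes were lower by number and 5.45% higher. Of the 18, 5 were lower and none higher at that threshold, and none passed the adjusted threshold (edgeR). Junb, the most abundant of them and an immediate early gene, had 7234 CPM in flox 2 and 5673 CPM in wt 2, against 8193 CPM in flox 1 and 8729.9 CPM in wt 1. Dusp1, a phosphatase gene of the same early response, had 3265 CPM in flox 2 and 2650.1 CPM in wt 2, against 4097 CPM in flox 1 and 4134 CPM in wt 1. Both lay lower in both libraries numbered 2, as did Fos, another immediate early gene. Fos had 954 CPM in flox 2 and 652 CPM in wt 2, against 1493 CPM in flox 1 and 1501 CPM in wt 1. Hspa8, a heat shock protein gene, had 4359 CPM in flox 2 and 1878 CPM in wt 2, against 2375 CPM in flox 1 and 2104 CPM in wt 1. Hif1a and Ddit4 are themselves known to respond to stress, and the part of handling in their differences was not tested. Epithelial markers summed to 396 and 524 CPM in flox 2 and wt 2, against 525 and 226 CPM in flox 1 and wt 1, and the 2 groups overlapped. B cell markers, at 114 and 145 CPM in flox 2 and wt 2, against 218 and 111 CPM in flox 1 and wt 1, also overlapped in their sums. Gene by gene, 10 of the 11 tested B and plasma cell markers had a log2 fold change below 0 by number, against 48.7% of all tested genes. Their median was -0.68, against 0.01 over all tested genes. In 3 both libraries numbered 2 lay below both numbered 1, against 22.5% of all tested genes. In none did they lie above, against 22.7%. None of the 11 passed the adjusted threshold in edgeR. At an unadjusted p under 0.05, 1 was lower, where 8.12% of all tested genes were. Myeloid markers also overlapped in their sums. These were 59.0 and 65.9 CPM in flox 2 and wt 2, against 104 and 15.4 CPM in flox 1 and wt 1. Of 9 tested myeloid markers, 6 had a log2 fold change below 0 by number and 3 above, with a median of -0.07. Over all tested genes 48.7% were below 0. Markers of CD8 T, NK and innate lymphoid cells summed to 316 and 509 CPM in flox 2 and wt 2, against 300 and 114 CPM in flox 1 and wt 1, and these sums lay higher in both libraries numbered 2. Gzma, the most abundant of them, had 210.3 and 419.5 CPM in flox 2 and wt 2, against 221 and 48.5 CPM in flox 1 and wt 1, and the groups overlapped. Of the 9 tested, 5 had a log2 fold change below 0, against 48.7% of all tested genes, and the median was -0.01. At the adjusted threshold in edgeR 1 was called higher and 1 lower, against 0.399% and 1.41% of all tested genes. Klrb1c was the higher one, with 68.5 and 44.9 CPM in flox 2 and wt 2, against 21.3 and 22.6 CPM in flox 1 and wt 1. Il23r, named after its values were seen, was the lower one, with 0.387 and 1.09 CPM in flox 2 and wt 2, against 9.46 and 8.41 CPM in flox 1 and wt 1. Of 11 stromal and red cell markers, 4 were at 0 in every library. None of these lists was at 0 as a whole, and their part in the levels of the 31 genes was not tested. The 18 cell cycle genes summed to 1069 and 1098 CPM in flox 2 and wt 2, against 1034 and 1087 CPM in flox 1 and wt 1.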

How the data were processed

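Cells were lysed in Trizol, and column-purified RNA went into an ultra-low input mRNA library kit, per the labels' protocols. The submitters' processing notes list build mm10 with TopHat2 2.1.1, HTSeq 0.6.1 and edgeR 3.14; the settings, strand option and annotation were not given in the sources used here. A raw count was deposited for each gene symbol and library, and these were the values used in every test. Its 5 summary rows, 66.6% to 67.2% of the column totals, were left out. The authors also deposited a normalized signal for 10618 genes, read here only to see that it lists 30 of the 31 genes (Eno1 is not among them).

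The 31 genes and the pathway lists were chosen with earlier results of these data known. Counts were tested with edgeR 4.0.16 (TMM, filterByExpr, robust quasi-likelihood) over 13022 genes, with 95% intervals from the fit, in 2 separate fits, by title number and by label. The biological coefficient of variation was 0.194 by number and 0.273 by label. The test was tried on simulated counts first. CPM uses TMM library sizes; intervals of within-label ratios are exact binomial and cover counting error only. Lengths, overlaps and coordinates came from GENCODE M21 (GRCm38, the same build), near-identical copies from blastn 2.17.0, and promoters from RefSeq. Genes were named by rule: Maf, all 31, and from each pathway list those called or otherwise the 3 with the smallest p; of marker and handling lists, genes among the 4 most abundant. Alternatives were other scalings, filters, tools (DESeq2 1.42.0, limma 3.58.1), a block and leaving out each library.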

Additional observations from a re-analysis of the deposited data

Results flagged for a closer look

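Of the 31 genes, 4 had a library 2 that was higher than library 1 within 1 label and lower within the other. Each ratio lay beyond counting error. The share was near the 11.2% of all tested genes that did so, so the pattern is not particular to the 31. The log2 ratio of library 2 to library 1 within the flox label, minus that within the wt label, was 1.00 for Egln3, 0.53 for P4ha1 and 0.46 for Slc16a1, which were higher in flox 2 than in flox 1 and lower in wt 2 than in wt 1. For Eno3 it was -0.96, with the opposite pattern. With 1 library for each label and number, these differences were not tested.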

How the results depend on the processing

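No result changed direction while called, under any of the 14 alternatives to each comparison. By number, the members called were 2 in the fit as reported, 4 with library totals alone, without a filter, at a minimum of 5 CPM in 2 libraries and in edgeR's likelihood ratio test (Hif1a and Slc2a3 added), and 5 in DESeq2 (Pfkl added too); leaving out 1 library gave 0 to 5, with 0 without flox 1 or wt 1, 5 without flox 2 and 4 without wt 2. Over all genes the count was 236, against 589 without a filter, 635 in DESeq2 and 608 in the likelihood ratio test, and 46 to 525 with 1 library left out. In the pathway lists it was 2, against 1 with upper quartile scaling, library totals alone, limma-voom, a fit that was not robust or a label block, 9 without a filter and in DESeq2, 8 in the likelihood ratio test, and 0 to 8 with 1 library left out. By label, all alternatives gave 0 members; over all genes the count was 1, against 2 without a filter, 12 in DESeq2 and the likelihood ratio test, 0 in limma-voom (262 at an unadjusted p under 0.05) and 0 each time a library was left out. The causes were not tested. With all libraries, adjusted p ran from 9.8e-11 to 0.0249 for Slc16a3, 4.96e-08 to 0.0286 for Ddit4, 5.91e-05 to 0.0954 for Hif1a and 0.00199 to 0.0953 for Slc2a3. The sign of the fold change held under every alternative for 23 of the 31 genes by number and 10 by label.

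The labels share title numbers, which nothing ties to a shared animal or day. With the number as a replicate block, the comparison by label called 1 gene and 0 members. Deviations of same-numbered libraries from their label's mean correlated at 0.362; with 2 libraries a label the pairs are mirror images, so this is 1 value, and it holds the difference by number itself and is no check of pairing. The label block left 212 genes by number. Where 1 library of a group was left out, the other was assumed to vary like the remaining group. At a floor of 0.123 to 0.148 CPM, depth limits genes with few counts, such as Eno1 and Arnt2.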

Other observations

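The genes in this paragraph come from the pathway lists but were chosen after their values were seen, and none passed the adjusted threshold of the edgeR quasi-likelihood test by number. Myc, the transcription factor that drives glycolytic genes in activated T cells, had 297 CPM in flox 2 and 287 CPM in wt 2, against 388 CPM in flox 1 and 475 CPM in wt 1 (log2 fold change -0.56, SE 0.11, edgeR adjusted p = 0.078). Rheb, the GTPase that activates mTORC1, had 143 CPM in flox 2 and 110.1 CPM in wt 2, against 185 CPM in flox 1 and 176 CPM in wt 1 (log2 fold change -0.51). Tfrc, the transferrin receptor, had 68.4 CPM in flox 2 and 73.4 CPM in wt 2, against 92.5 CPM in flox 1 and 89.1 CPM in wt 1 (log2 fold change -0.36). Arrdc4, a relative of Txnip that is also induced by glucose, had 133 CPM in flox 2 and 109 CPM in wt 2, against 90.9 CPM in flox 1 and 87.3 CPM in wt 1 (log2 fold change 0.44, edgeR adjusted p = 0.164). Hmox1, heme oxygenase 1, had 9.91 CPM in flox 2 and 9.34 CPM in wt 2, against 15.9 CPM in flox 1 and 16.1 CPM in wt 1 (log2 fold change -0.73, edgeR adjusted p = 0.141). Bnip3l, the relative of Bnip3, had 284 CPM in flox 2 and 312 CPM in wt 2, against 288 CPM in flox 1 and 313 CPM in wt 1, a log2 fold change of -0.01 (95% interval -0.23 to 0.21).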
